A study of Mus musculus with 6 samples.

Results

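The 10 genes described here are genes of the fat cell: Adipoq, Cfd, Car3, Thrsp, Plin1, Plin4, Fabp4, Lpl, Pparg and Cd36. They were taken by symbol from a table of 50559 genes, and all 10 were found in it. The table comes from RNA sequencing of inguinal lymph nodes of mice, 6 libraries in all. In 3 libraries, labelled Naringin, the mice had received naringin, a flavonoid glycoside of citrus fruit, mixed into the food at 200 mg/kg per day. The other 3 libraries were labelled Control. The sources used here do not give the strain, sex or age of the mice, the length of feeding or the control diet. Whether each library is a separate animal is not stated either, so p-values measure only the spread between these samples, which may be technical. The comparison is of nodes with and without naringin in the diet.

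Inguinal lymph nodes lie embedded in subcutaneous fat, and a dissected node can carry adipocytes on its capsule. Adipocytes store triglyceride in a single large droplet coated by perilipins, take up fatty acids that lipoprotein lipase frees from blood lipoproteins, and secrete hormones and complement proteins. The nuclear receptor PPARγ, encoded by Pparg, switches on most of these genes. Several of them are not private to fat: macrophages, endothelial and stromal cells also use fatty acid carriers, lipoprotein lipase and the scavenger receptor CD36. The genes were therefore divided, by general knowledge of where they are made, into 6 fat-restricted genes (Adipoq, Cfd, Car3, Thrsp, Plin1 and Plin4) and 4 that node cells can also make (Fabp4, Lpl, Pparg and Cd36). Within the first group, Car3 is also strong in muscle and liver, Thrsp in liver and lactating mammary gland, and Plin4 in muscle.

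Values are CPM, the reads of a gene per 1000000 reads assigned to genes in its library. The libraries held 13074180 to 14976422 such reads, so that a single read was worth 0.0668 to 0.0765 CPM. The samples carried the RNA of a lymph node, with summed levels of 5 B cell markers between 2591 and 3360 CPM and of 6 T cell markers between 1312 and 1730 CPM. Some markers of other tissues had reads. The 8 markers of skin and mammary epithelium summed to 5.63 to 8.27 CPM with naringin and 4.63 to 6.95 CPM in Control, most of it from Epcam, and the 4 keratins among them had at most 0.981 CPM. The 8 muscle markers summed to 7.21 to 9.01 CPM with naringin and 5.88 to 10.2 CPM in Control, most of it from Tnnt3 and Atp2a1, while Mb and Myh4 had no read in any library. The brown fat genes Ucp1 and Elovl3 had no read either. Every pair of libraries differed beyond sampling noise, and Control 3 stood apart: the chi-square per degree of freedom was 39.3 to 61.6 in its 5 pairs, against 7.68 to 27.7 in the 10 pairs without it. Group differences of the members are therefore also given without Control 3, and those of other genes are not.

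The fat-restricted genes separated libraries more than they separated the groups. Their 6 levels summed to 22.3, 23.9 and 8.55 CPM in Naringin 1, 2 and 3, against 58.4, 27.3 and 17.8 CPM in Control 1, 2 and 3. Control 1 stood highest and Naringin 3 lowest, and the other 4 libraries lay close together with the groups mixed. The sums averaged 18.3 ± 8.45 CPM with naringin and 34.5 ± 21.2 CPM in Control (SD, n = 3 each). Much of these sums came from Cfd and Car3. The other 4 genes summed to 6.43, 9.08 and 4.48 CPM in Naringin 1, 2 and 3. In Control 1, 2 and 3 they summed to 12.4, 9.69 and 7.28 CPM. The highest library was 6.84 times the lowest with Cfd and Car3 and 2.76 times without them. Of the 6 genes, 5 were highest in Control 1 and lowest in Naringin 3, and Thrsp was neither. In bulk tissue, fewer adipocytes on a node and less of these RNAs per adipocyte cannot be told apart, and the files do not show where in a sample the RNA came from.

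**Figure D1:**
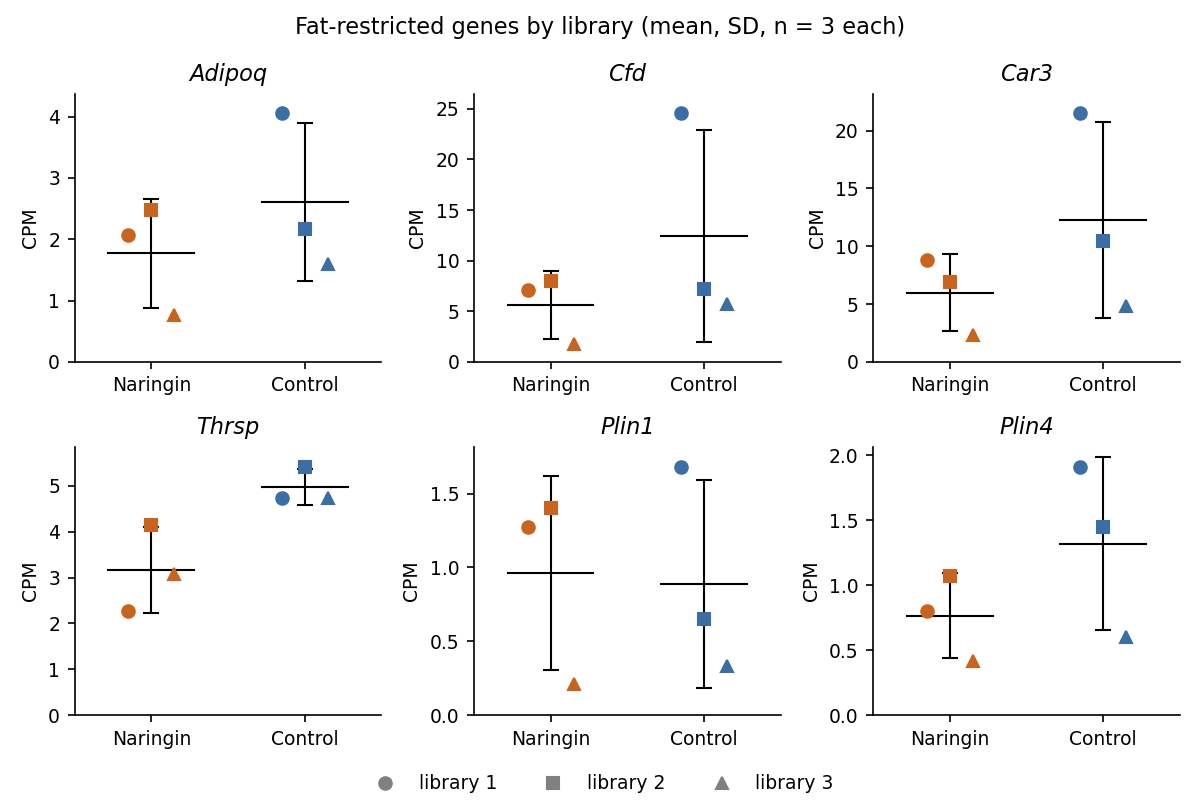
CPM (vertical axes, from 0) of the 6 fat-restricted genes in the Naringin and Control libraries. Points are single libraries, and lines and bars are the mean and SD of 3. Control 1 is highest and Naringin 3 lowest for every gene shown except Thrsp.

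Adipoq encodes adiponectin, a hormone made by adipocytes that raises insulin sensitivity. It stood at 2.08, 2.47 and 0.770 CPM in Naringin 1, 2 and 3, against 4.05, 2.17 and 1.60 CPM in Control 1, 2 and 3. The groups overlapped, with Naringin 1 and 2 inside the control range and Naringin 3 below it. These levels rest on few reads: 11 in Naringin 3 and 53 in Control 1, a ratio per read sequenced of 5.26 for Control 1 over Naringin 3 (exact binomial 95% interval 2.72 to 11.2). Such intervals cover counting error only. The pair was picked for each gene as its highest and lowest library, so these ratios lie too high and the intervals do not hold at 95%. On the scale of log2(CPM + 1), which understates changes of low genes, Adipoq differed by -0.38 ± 0.34 (limma SE), Naringin minus Control. The limma adjusted p was 0.9996 for Adipoq and for the 8 other members tested.

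Cfd encodes adipsin, the complement factor D protease that adipocytes release into blood. Its CPM was 7.10, 7.95 and 1.75 in Naringin 1, 2 and 3 and 24.6, 7.16 and 5.75 in Control 1, 2 and 3. Control 1 alone was far above the rest, and the groups overlapped. Cfd was the most uneven of the 10 genes, with 14.0 times as much in Control 1 as in Naringin 3 (interval 9.33 to 22.0). The log2 fold with naringin was -0.94 ± 0.59 (SE, n = 3 each).

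Car3 encodes carbonic anhydrase 3, among the most abundant soluble proteins of mouse white fat. Levels of 8.78, 6.88 and 2.31 CPM in Naringin 1, 2 and 3 stood against 21.5, 10.5 and 4.81 CPM in Control 1, 2 and 3. Control 3 lay below Naringin 1 and 2, so the groups overlapped here too. Control 1 held 9.30 times the Car3 of Naringin 3 (interval 6.47 to 13.8), and the log2 fold was -0.85 ± 0.54 (SE). The summed muscle markers were highest in Control 2 at 10.2 CPM, against 8.87 CPM in Control 1, where Car3 was highest. Of the markers that carry this sum, Tnnt3 was highest in Control 2. Atp2a1 was highest in Control 1 at 4.28 CPM, against 2.61 to 3.98 CPM in the other libraries. In Control 1, Acta1 had 1 read, Ckm 2, Tnnc2 0 and Pvalb 5, where Car3 had 281 reads. The part of muscle in the level of Car3 was not tested.

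Plin1 and Plin4 encode perilipins, proteins that coat the lipid droplet; perilipin 1 guards the stored triglyceride against lipases. Plin1 had 1.27, 1.40 and 0.210 CPM in Naringin 1, 2 and 3 and 1.68, 0.651 and 0.334 CPM in Control 1, 2 and 3. Its order of libraries mixed the groups: Control 1 was followed by Naringin 2 and Naringin 1, then by Control 2 and Control 3, with Naringin 3 at the end. With a mean under 1 CPM, Plin1 was the only member below the level filter of the test, and its log2 fold of 0.05 ± 0.31 (SE) is given without a p. The sign turned when single libraries were left out, with -0.17 for Plin1 without Control 3, -0.12 without Naringin 2, -0.08 without Naringin 1 and -0.01 without Control 2, and it was 0.34 without Control 1 and 0.37 without Naringin 3. Its lowest value, in Naringin 3, was 3 reads, against 22 reads in Control 1 (ratio 8.01 for Control 1 over Naringin 3, interval 2.41 to 41.8).

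Plin4 stood at 0.804, 1.07 and 0.420 CPM in Naringin 1, 2 and 3 and at 1.91, 1.45 and 0.601 CPM in Control 1, 2 and 3. Control 1 and 2 were the highest libraries and Control 3 the second lowest. The log2 fold was -0.37 ± 0.28 (SE), and the plain ratio of the group means was 0.579, Naringin over Control. In the RefSeq annotation Plin4 overlaps the gene Hdgfl2, which averaged 82.5 CPM. How the counting treated strand is not stated, so some Plin4 reads may belong to that gene. Car3 overlaps a predicted gene with a mean of 0.0111 CPM, and the other 8 members overlap no other gene there.

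Thrsp, a small nuclear protein that responds to thyroid hormone and carbohydrate and promotes fatty acid synthesis, had a pattern of its own. It had 2.28, 4.14 and 3.08 CPM in Naringin 1, 2 and 3, against 4.74, 5.42 and 4.74 CPM in Control 1, 2 and 3. The 3 naringin libraries were all below the 3 controls, the only member of which this held. Across all genes tested, 2.29% had naringin libraries wholly below the controls and 3.36% wholly above them. Thrsp averaged 3.17 ± 0.934 CPM with naringin and 4.97 ± 0.391 CPM in Control (SD, n = 3 each). Its log2 fold was -0.54 ± 0.22 (SE), with an unadjusted limma p of 0.0365 by the test fitted across all genes. That p was not past the threshold after adjustment (limma adjusted p = 0.9996). Control 1, the library richest in the other fat-restricted genes, was no higher for Thrsp than Control 3.

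The start regions of 3 members are shown so that the letters of Adipoq and Plin1 can be compared with those of Pparg, the regulator's gene. Of the 5 fat-restricted genes with a window, Plin1 was the only one with a match. The windows, from RefSeq on the build GRCm38.p6, run from 250 bases before to 50 bases after an annotated start, written 5′ to 3′ on the gene's strand. Such windows were found for 7 of the 10 members. Capitals mark matches, on either strand, to the C/EBP core TTGCNNAA; the TATA box TATAAA, the site AGGTCA of nuclear receptors and the E-box CACGTG were searched as well and have no match in these 3 windows. Of the 3 start sites listed for Pparg, the most downstream is shown, since the adipocyte form PPARγ2 begins downstream of the widely used PPARγ1 starts. The windows lie at chr16:23146286-23146585 (Adipoq, plus strand), chr7:79732727-79733026 (Plin1, minus strand) and chr6:115421816-115422115 (Pparg, plus strand).
Adipoq: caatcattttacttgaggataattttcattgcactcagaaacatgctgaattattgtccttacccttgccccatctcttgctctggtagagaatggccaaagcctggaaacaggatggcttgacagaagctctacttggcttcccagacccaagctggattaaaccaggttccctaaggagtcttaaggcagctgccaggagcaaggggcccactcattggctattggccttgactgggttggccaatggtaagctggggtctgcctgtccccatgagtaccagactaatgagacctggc
Plin1: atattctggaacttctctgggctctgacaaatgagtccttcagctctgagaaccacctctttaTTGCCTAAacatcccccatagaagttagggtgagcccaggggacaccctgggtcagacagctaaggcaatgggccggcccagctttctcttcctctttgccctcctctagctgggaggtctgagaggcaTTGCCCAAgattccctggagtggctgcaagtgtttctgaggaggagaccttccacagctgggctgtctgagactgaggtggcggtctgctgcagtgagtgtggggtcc
Pparg: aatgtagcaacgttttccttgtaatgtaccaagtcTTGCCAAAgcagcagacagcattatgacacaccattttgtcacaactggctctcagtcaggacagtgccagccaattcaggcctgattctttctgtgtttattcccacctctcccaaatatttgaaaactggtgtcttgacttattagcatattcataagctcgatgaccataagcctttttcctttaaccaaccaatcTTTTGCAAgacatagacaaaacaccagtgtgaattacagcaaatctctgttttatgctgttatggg
Plin1 held 2 matches to the C/EBP core, beginning 187 and 58 bases before the start, and the downstream Pparg window held 2, beginning 215 and 16 bases before it. Adipoq held none of the 4 motifs in this window. Neither did Cfd, Thrsp or Plin4, whose windows are not printed. Among the other windows not printed, that of Cd36 held a match to AGGTCA, both upstream windows of Pparg held a match to AGGTCA, and one of these also held the TATA box. Of all 32851 windows of the RefSeq table, 10.8% held the C/EBP core, 13.6% the TATA box, 16.3% the nuclear receptor site and 7.15% the E-box. A match is only a match of letters.

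Genes with a second source in the node came next. Fabp4 encodes the fatty acid carrier aP2 of adipocytes, macrophages and capillary endothelium. It stood at 44.5, 33.7 and 29.3 CPM in Naringin 1, 2 and 3 and at 64.9, 35.3 and 35.7 CPM in Control 1, 2 and 3. As for the fat-restricted genes, Control 1 was highest and Naringin 3 lowest, but the extremes differed by only 2.22 times (interval 1.97 to 2.50). The log2 fold with naringin was -0.29 ± 0.26 (SE), with Naringin 1 above Control 2 and 3.

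Lpl encodes lipoprotein lipase, which adipocytes, macrophages and stromal cells secrete and which frees fatty acids at the vessel wall. Its CPM was 138, 104 and 68.8 in Naringin 1, 2 and 3 and 161, 68.5 and 121 in Control 1, 2 and 3. High and low libraries occurred in both groups, and Control 2, not Naringin 3, was the lowest. The log2 fold was -0.15 ± 0.34 (SE); it was 0.13 without Control 1 and 0.12 without Naringin 3, the other way round.

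Pparg had 6.63, 2.07 and 2.03 CPM in Naringin 1, 2 and 3 and 4.51, 3.47 and 3.81 CPM in Control 1, 2 and 3. Naringin 1 was the highest of the 6 libraries and the other 2 naringin libraries the lowest, so the naringin spread enclosed the controls. The difference was -0.25 ± 0.36 on the log2 scale (SE) and -0.69 without Naringin 1. It was -0.03 without Naringin 2, -0.02 without Naringin 3 and -0.16 without Control 1. Gene-level values do not separate the adipocyte form from the form of other cells.

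Cd36 encodes a scavenger receptor and fatty acid translocase found on adipocytes, macrophages and capillary endothelium. It stood at 43.4, 27.6 and 17.2 CPM in Naringin 1, 2 and 3, while the controls were nearly level at 26.8, 25.6 and 27.4 CPM. Control 1, with by far the most Cfd and Car3, was not raised for Cd36. The mean was 29.4 ± 13.2 CPM with naringin and 26.6 ± 0.928 CPM in Control (SD, n = 3 each). The log2 fold of 0.04 ± 0.28 (SE) was -0.28 without Naringin 1 and 0.37 without Naringin 3.

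**Figure D2:**
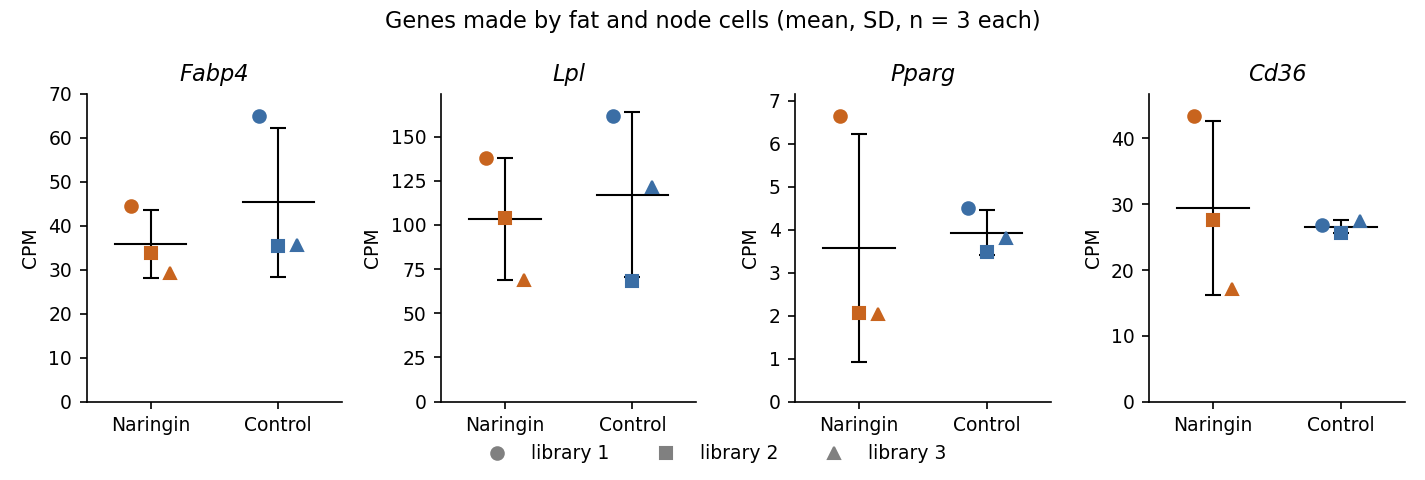
CPM (vertical axes, from 0) of Fabp4, Lpl, Pparg and Cd36 in the Naringin and Control libraries, with single libraries as points and mean and SD of 3 as lines and bars. Fabp4 and Lpl are highest in Control 1, Pparg and Cd36 in Naringin 1.

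Per kilobase of annotated exon, which allows levels of different genes to be compared, Lpl stood at 9.88 ± 3.29 with naringin and 11.2 ± 4.45 CPM per kilobase in Control (SD, n = 3 each). Cd36 had 8.19 ± 3.67 CPM per kilobase with naringin and 7.41 ± 0.259 in Control, and Fabp4 7.98 ± 1.74 with naringin and 10.1 ± 3.78 in Control. Cfd stood at 6.07 ± 3.64 CPM per kilobase with naringin and 13.5 ± 11.4 in Control, the fourth place with naringin and the first in Control, where Control 1 was far the highest library. In either group, neighbours in the order of these 4 genes differed by less than the larger of their SDs. Car3 followed at 2.09 ± 1.16 CPM per kilobase with naringin and 4.28 ± 2.96 in Control. Thrsp, Adipoq and Pparg lay between 1.21 and 1.45 CPM per kilobase with naringin and between 1.33 and 2.27 in Control, and Plin1 and Plin4 were lowest in both groups, at most at 0.228. Exon lengths were summed over all annotated exons in GENCODE M21, so a gene with long alternative exons is set too low.

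Ratios to Adipoq within a library show how far each gene kept pace with this fat hormone. Plin4 to Adipoq ran from 0.375 in Control 3 to 0.667 in Control 2, and Car3 to Adipoq from 2.78 in Naringin 2 to 5.30 in Control 1. Thrsp to Adipoq ran from 1.10 in Naringin 1 to 4.0 in Naringin 3, and Plin1 to Adipoq from 0.208 in Control 3 to 0.613 in Naringin 1. The highest ratio was 3.65 times the lowest for Thrsp and 2.94 times for Plin1. It was 2.78 times for Fabp4 and 3.36 times for Cd36, so some fat-restricted genes varied against Adipoq as much as shared ones. The ratio of Cfd to Adipoq was 3.42, 3.22 and 2.27 in Naringin 1, 2 and 3 and 6.06, 3.30 and 3.58 in Control 1, 2 and 3. So Cfd stood high in Control 1 even beside Adipoq. Fabp4 to Adipoq was lowest in Naringin 2 at 13.6 and highest in Naringin 3 at 38.0, the library with least Adipoq. Cd36 to Adipoq was 22.3 in Naringin 3 and 6.62 in Control 1. With 11 Adipoq reads in Naringin 3, its ratios are the least precise.

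A mean profile of the 6 fat-restricted genes, each centred on its own mean of log2(CPM + 1), was then set beside those of other genes. Likeness was the root mean square difference over the 6 libraries, for 13337 other genes that passed the level filter, once genes with provisional Gm or Rik names and antigen receptor genes were left out. A flat profile would have a difference of 0.509. The nearest gene was Ms4a14 at 0.172, a relative of the B cell antigen CD20, followed by Cidec at 0.222 and Retn at 0.225, both adipocyte genes. Cidec encodes a droplet protein that fuses lipid droplets, and Retn the fat hormone resistin. After them came Jpx (0.242), Prdm1 (0.250), Emp1 (0.268), Stard6 (0.271), Adarb1 (0.274), Nav1 (0.274) and Apol7b (0.281). Prdm1 encodes the plasma cell factor Blimp-1 and Jpx is a noncoding RNA. With 6 libraries and so many genes, near profiles of unrelated genes can occur.

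Among the members, Adipoq was closest to the mean of the other 5 fat-restricted genes, at 0.0976, with Plin4 at 0.246 and Plin1 at 0.340. Car3 at 0.446 and Cfd at 0.534 lay farther off, and their range was wider: from the lowest to the highest library Cfd spanned 3.22 and Car3 2.76 log2 units, and the median gene of like level 0.66. Thrsp, at 0.562, was the farthest of the fat-restricted genes. Of the other 4 genes Fabp4 lay at 0.284 from the fat-restricted mean, Lpl at 0.436, Cd36 at 0.487 and Pparg at 0.522. Of these 13337 genes, 12 were closer to the fat-restricted mean than Fabp4, 749 than Lpl, 2872 than Cd36 and 5340 than Pparg. For the fat-restricted genes, set against the mean that includes the gene itself, the counts were 0 for Adipoq, 1 for Plin4 and 12 for Plin1. They were 134 for Car3, 985 for Cfd and 1869 for Thrsp. Cfd and Thrsp, though part of that mean, thus had more genes closer to it than Fabp4 or Lpl had.

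**Figure D3:**
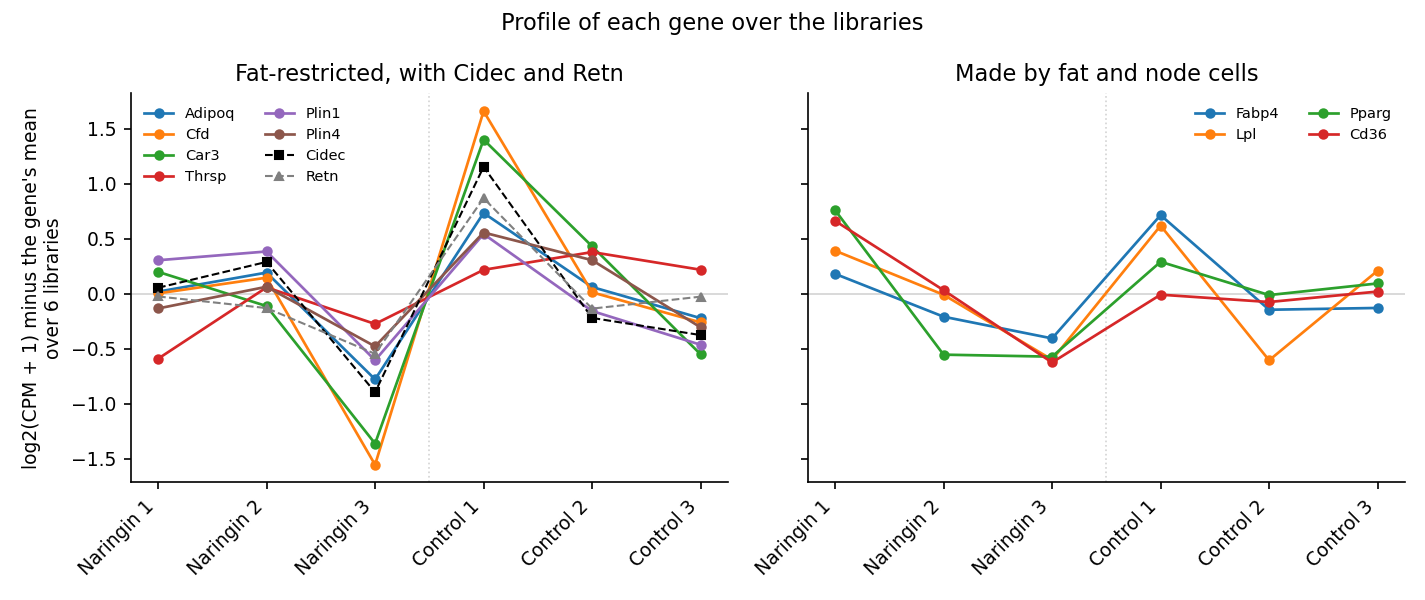
Centred log2(CPM + 1) of each gene (vertical axis) over the 6 libraries (horizontal axis), with fat-restricted genes, Cidec and Retn at left and Fabp4, Lpl, Pparg and Cd36 at right. At left, all genes but Thrsp peak in Control 1 and dip in Naringin 3; at right, Pparg and Cd36 peak in Naringin 1.

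Other cells that can make the shared genes also varied between libraries. All 10 macrophage markers were in the table, and they summed to 2650, 1766 and 936 CPM in Naringin 1, 2 and 3 and to 1201, 1364 and 2460 CPM in Control 1, 2 and 3. Vsig4 was at 0 in 5 libraries and had 1 read in Naringin 3, and the receptor Cd163 lay at 0.668 to 1.34 CPM. Csf1r, the receptor of the macrophage growth factor, was at 435, 295 and 138 CPM in Naringin 1, 2 and 3 and at 190, 251 and 394 CPM in Control 1, 2 and 3. The summed markers were thus highest in Naringin 1 and lowest in Naringin 3, as were Pparg and Cd36. Control 3 had the second highest sum, and C1qa, C1qb and Cd68 were highest there, at 506, 461 and 128 CPM, whereas Pparg at 3.81 and Cd36 at 27.4 CPM were not raised in Control 3.

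The 8 markers of fibroblasts and adipose progenitors, none at 0, summed to 1102, 671 and 349 CPM in Naringin 1, 2 and 3 and to 495, 538 and 838 CPM in Control 1, 2 and 3. Dcn, a small proteoglycan of the matrix, was at 691, 355 and 137 CPM in Naringin 1, 2 and 3, with 234, 287 and 555 CPM in Control 1, 2 and 3. The 9 blood endothelium markers, also none at 0, ranged from 722 to 955 CPM with naringin and from 659 to 896 CPM in Control. For the sums of both lists Naringin 1 was the highest library, but not for every marker. Pecam1, Emcn and Rgcc were highest in Control 2, Egfl7 and Lum in Control 3 and Dpp4 in Naringin 2. The other markers of both lists were highest in Naringin 1. The part of these cells in the levels of Fabp4, Lpl, Pparg and Cd36 was not tested. None of the 3 summed lists peaked in Control 1, where the fat-restricted sum did. The summed T cell markers also peaked there, at 1730 CPM, against 1312 to 1715 CPM in the other libraries.

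**Figure D4:**
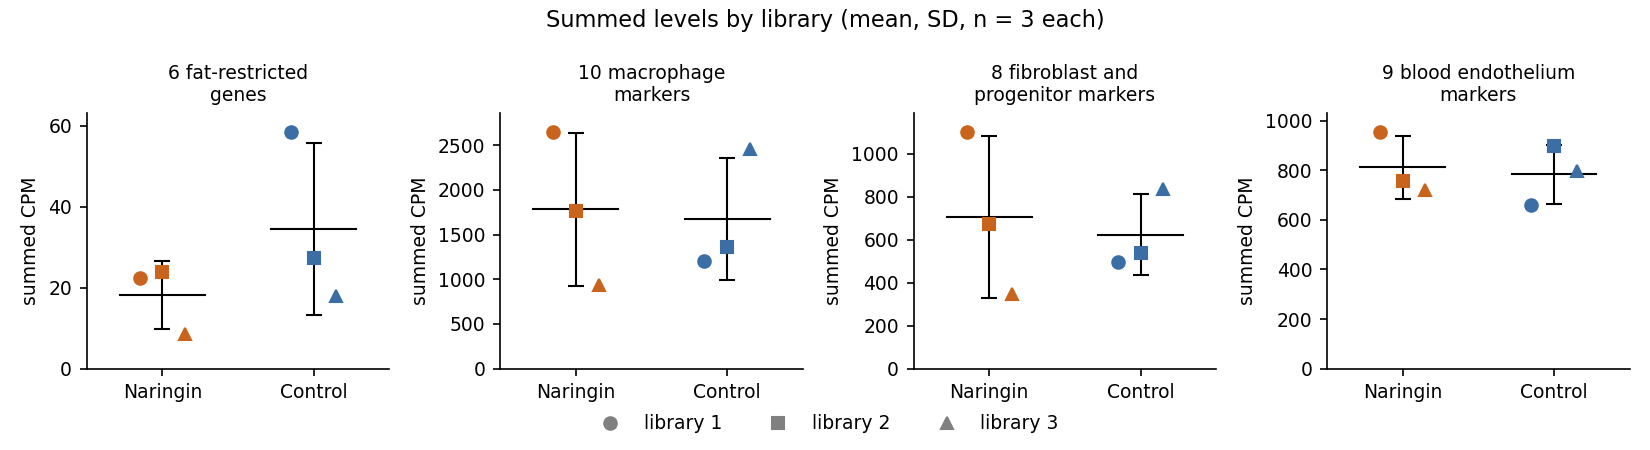
Summed CPM (vertical axes, from 0) of the 6 fat-restricted genes and of macrophage, fibroblast and blood endothelium markers in the Naringin and Control libraries, with mean and SD of 3. The fat-restricted sum is highest in Control 1 at 58.4 CPM, the other 3 sums in Naringin 1.

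Compared over groups, no member passed. Of 14873 genes tested with limma, 0 were called at an adjusted p under 0.05, or 0.0%, and 0 of the 9 members tested were among them. Before adjustment 213 genes, 1.43%, had a p under 0.05, and 1 member, Thrsp, was among them. That count depended on single libraries: it was 1391 without Control 3, 513 without Naringin 3, 132 without Naringin 1 and 72 without Naringin 2. Thrsp was among them without Control 3 or without Naringin 2 but in none of the other 4 fits that left out a library, while Plin4 was among them without Control 3 and Pparg without Naringin 1. Reads were recovered from the CPM for count tests. Of these, edgeR called 0 genes (0.0%), and 232 genes (1.56%) and 1 member, Thrsp, had an edgeR p under 0.05 before adjustment. DESeq2 called 3 genes, 0.0202% of those tested, none of them a member; before adjustment its p was under 0.05 for 227 genes (1.53%) and 2 members, Car3 and Thrsp. A lower mean log2 level with naringin was found in 8 of the 10 members, all but Plin1 and Cd36, and in 43.3% of all genes tested. The median log2 fold was -0.46 over the 6 fat-restricted genes and -0.20 over the 4 shared ones, against 0.02 over all genes tested. Single libraries carried much of this. Without Control 3, the library that stood apart, the fat-restricted median was -0.60 and the shared one -0.17. Car3 was then at -1.34, Cfd at -1.31, Plin4 at -0.61, Adipoq at -0.59 and Thrsp at -0.57. Of the shared genes, Fabp4 was at -0.43, Lpl at -0.08, Pparg at -0.26 and Cd36 at 0.07. Without Control 1 the fat-restricted median was -0.26, and without Naringin 3 it was -0.30, with Cfd at -0.34 and -0.40 and Adipoq at -0.11 and -0.09 in these fits. The shared median was 0.02 without Control 1 and 0.05 without Naringin 3, its sign turned. Leaving out Control 2 gave -0.38 for the shared genes, leaving out Naringin 1 gave -0.42, and with Naringin 2 left out the value was -0.10.

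**Figure D5:**
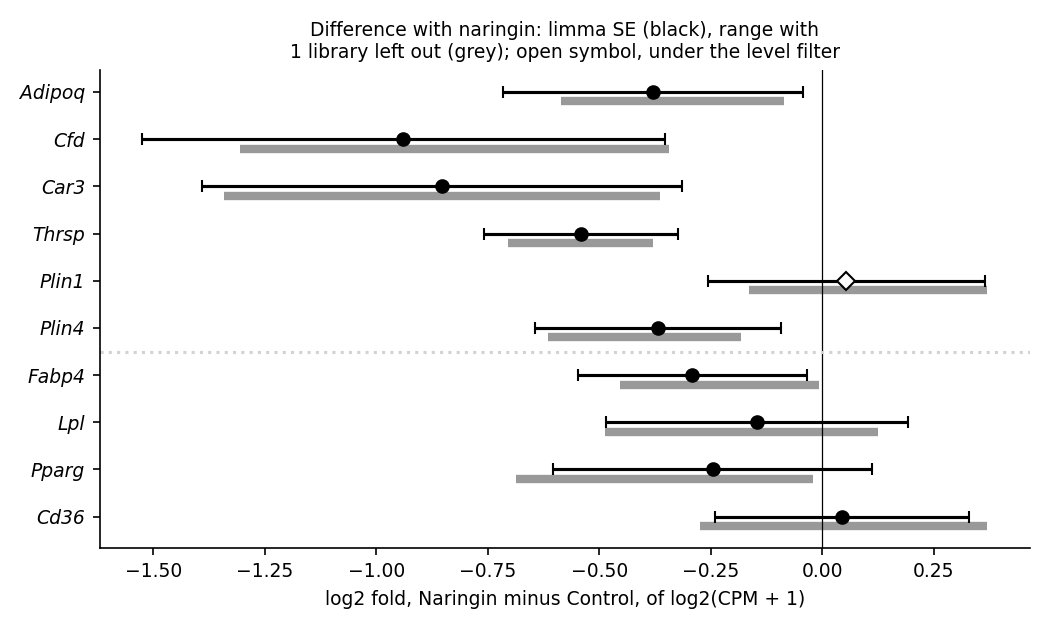
Log2 fold of each member, Naringin minus Control (horizontal axis), with limma's SE in black and the range over leaving out each library in grey. The SE bars of Plin1, Lpl, Pparg and Cd36 include 0, and none of the 9 members tested passed the adjusted threshold.

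Further genes of the fat cell, from lists chosen for their role, were read from the same fit, and 0 of them passed it. Among 6 secreted factors 3 were tested, 1 lower and 2 higher with naringin. Retn, the resistin gene, stood at 0.938, 0.801 and 0.350 CPM in Naringin 1, 2 and 3 and at 2.60, 0.795 and 0.936 CPM in Control 1, 2 and 3. Control 1 was the outlying library, as for Adipoq, and the log2 fold was -0.47 ± 0.31 (SE). Leptin, Lep, had 2, 0 and 2 reads in Naringin 1, 2 and 3 and 7, 1 and 1 reads in Control 1, 2 and 3. Nnmt and Apln, a methyltransferase and a peptide hormone that other cells also make, had log2 folds of 0.24 and 0.23.

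Of the 6 other droplet proteins 4 were tested, 3 lower and 1 higher. Cidec was at 1.61, 2.07 and 0.350 CPM in Naringin 1, 2 and 3 and at 4.59, 1.16 and 0.936 CPM in Control 1, 2 and 3, following the fat-restricted order at its ends. Plin2, the perilipin of droplets in most cells, did not: it averaged 80.6 ± 29.2 CPM with naringin and 61.3 ± 17.2 CPM in Control (SD, n = 3 each), highest in Naringin 1 at 110.0 CPM. Plin3 and G0s2, an inhibitor of the fat lipase ATGL, had log2 folds of -0.05 and -0.06. Among the 4 lipolysis genes 1 was lower and 3 were higher, with Pnpla2 (ATGL) at -0.13, Lipe (hormone-sensitive lipase) at 0.09, Abhd5 at 0.05 and Mgll at 0.35.

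Genes of lipid synthesis, which lymphocytes also use, did not peak in Control 1 as a sum: it was 1084 CPM there, against 921 to 1181 CPM in the other libraries. Of 13 such genes 12 were tested, 6 lower and 6 higher, with a median log2 fold of 0.05. Scd1, which makes monounsaturated fatty acids, was the highest at 508, 583 and 539 CPM in Naringin 1, 2 and 3 and 466, 478 and 336 CPM in Control 1, 2 and 3. Its groups did not overlap, the naringin libraries being the higher ones. The log2 fold was 0.36 ± 0.17 (SE), with an unadjusted limma p of 0.0586. Elovl6, which lengthens fatty acids, had a log2 fold of 0.36, Acly 0.17 and Fasn -0.19. Of the 12 tested, Fasn and Srebf1 had naringin values wholly below the controls. So had the untested Mlxipl, with at most 6 reads in a library. Over all genes tested, 2.29% had naringin values wholly below the controls and 3.36% wholly above them.

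For fuel uptake 5 of 7 genes were tested, 4 lower and 1 higher. Pck1, which makes the glycerol backbone of triglyceride in fat, had 30, 18 and 0 reads in Naringin 1, 2 and 3 and 43, 12 and 3 reads in Control 1, 2 and 3. It was thus highest in Control 1 and lowest in Naringin 3, where it had no read. Cav1, Slc27a1 and Acsl1, at 35.9 to 62.0, 23.5 to 41.0 and 14.8 to 20.8 CPM over the 6 libraries, had log2 folds of -0.0016, -0.11 and 0.03. The glucose transporter Slc2a4 (GLUT4) stayed at or under 0.940 CPM.

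Transcription factors that act upstream of Pparg in fat differentiation had higher means with naringin in 2 cases, Cebpb and Cebpd. Of 6 factors 5 were tested, 2 lower and 3 higher. Cebpb was at 45.1, 29.6 and 31.0 CPM in Naringin 1, 2 and 3 and at 21.6, 16.7 and 25.3 CPM in Control 1, 2 and 3. Its naringin libraries were wholly above the controls, as in 3.36% of all genes tested. Its log2 fold was 0.70 ± 0.21 (SE), with an unadjusted limma p of 0.00954, not past the adjusted threshold. Cebpd had a log2 fold of 0.72 ± 0.33 (SE), and Cebpa, the partner of PPARγ in mature fat cells, 0.01 ± 0.25. All 3 are also made by macrophages, whose summed markers were highest in Naringin 1, as were Cebpb and Cebpd. That sum was 936 CPM in Naringin 3, the lowest, and 2460 CPM in Control 3. In the same 2 libraries Cebpb was at 31.0 and 25.3 CPM and Cebpd at 35.9 and 47.6 CPM. Cebpa was lowest in Naringin 3 at 46.2 CPM and highest in Control 3 at 85.7 CPM. The part of these cells was not tested. Of the 5 receptors only Insr, at 24.5 to 57.9 CPM, was tested, with a log2 fold of -0.02; the fat-specific Adrb3 had at most 0.535 CPM. Acvr1c and Tshr stayed under 1 CPM.

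Relatives and partners of the shared genes gave no call either. Fabp5, the carrier of skin, macrophages and many other cells, averaged 93.3 ± 19.7 CPM with naringin and 104 ± 49.0 CPM in Control (SD, n = 3 each), with a log2 fold of -0.05. Fabp1 and Fabp7 had log2 folds of 0.13 and -0.15, and of the 3 family members tested 2 were lower. All 4 tested PPAR and RXR genes were lower, as were 43.3% of all genes tested. Their log2 folds were -0.08 ± 0.13 for Ppard, -0.05 ± 0.20 for Rxra, -0.05 ± 0.12 for Rxrb and -0.38 ± 0.22 for Rxrg (SE). Of the partners of Lpl 3 of 6 were tested, 2 lower and 1 higher. Angptl4, which inhibits lipoprotein lipase, stood at 76.2, 36.8 and 23.1 CPM in Naringin 1, 2 and 3 and at 19.9, 11.6 and 23.7 CPM in Control 1, 2 and 3. Naringin 3 lay within the control range, and the log2 fold was 1.15 ± 0.41 (SE), with an unadjusted limma p of 0.0236. The maturation factor Lmf1 (-0.02) and the endothelial anchor Gpihbp1 (-0.01) had log2 folds near 0.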

How the data were processed

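Per the submitters' processing notes, Trimmomatic 0.39, STAR 2.7.9a, featureCounts of Subread 1.6.0 and edgeR 3.40.0 were used, with the build mm39; neither annotation nor strand setting is stated. The authors deposited CPM for 50559 genes; each column sums to 1000000, so CPM carry no further scaling. All values above 0 were whole reads within 0.01 of a read (100%). CPM were tested as log2(CPM + 1) with limma 3.58.1 in R 4.3.3 (trend, robust, 2-sided, Benjamini-Hochberg over the 14873 genes averaging at least 1 CPM, threshold 0.05). SDs are over 3 libraries. The count tests on recovered reads, edgeR 4.0.16 and DESeq2 1.42.0, were alternatives. Only the limma step was tested on simulated reads, with the same dispersion for all genes and no outlying library. The changed genes of that simulation all lay above the levels of Adipoq, Thrsp, Plin1, Plin4 and Pparg. The members and gene lists were chosen with earlier results of these data known. All members are named; of each list, the 3 highest by CPM and the 2 with the smallest p, plus the 10 closest profiles. Lep, Srebf1, Slc2a4, Adrb3, Csf1r, Cd163, Dcn, C1qb, Mlxipl, Hdgfl2, Vsig4 and genes listed at 0 were named after their values were seen. So were Pecam1, Egfl7, Emcn, Rgcc, Dpp4, Lum, Acta1, Ckm, Tnnc2 and Pvalb. Alternatives were other scalings, pseudocounts, filters, variance models, a replicate block and leaving out each library.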

Additional observations from a re-analysis of the deposited data

How the results depend on the processing

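The number of genes called was 0 in limma under every scaling, pseudocount and filter tried, without trend and with the replicate block, and 0 in edgeR; it was 3 with DESeq2 and ran from 0 to 1 when single libraries were left out, the 1 without Control 3. No member was called in any of these fits. With the replicate block, Car3 rather than Thrsp was the member with an unadjusted p under 0.05; same-numbered libraries did not deviate together (correlations over genes of -0.26, -0.019 and -0.27), so the numbers were not taken as pairs. With single libraries left out, the fat-restricted median log2 fold ran from -0.64 to -0.26 and the shared one from -0.42 to 0.05. In these fits Lpl ran from -0.49 to 0.13, positive at 0.13 without Control 1 and 0.12 without Naringin 3, and Cd36 from -0.28, without Naringin 1, to 0.37; the cause was not tested. The other settings left the fat-restricted median between -0.73 and -0.46 and the shared one between -0.24 and -0.17. Depth limits Plin1, Plin4 and Adipoq, which had 3, 6 and 11 reads in Naringin 3.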
